A study of Mus musculus with 44 samples.

Results

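The comparison concerned erythroid cells fixed with 2% or 3% formaldehyde, with 2 technical replicate libraries at each concentration, 4 of the 44 samples in the series. The 4 libraries were taken by their labels, and each was read at 3 viewpoints: Hba-a1 with Hba-a2 (α-globin), Hbb-b1 with Hbb-b2 (β-globin), and Slc25a37. All cells were Ter-119+ cells, a surface marker of maturing red cells, from the spleens of C57Bl6 mice treated with phenylhydrazine, which destroys red cells and makes the spleen fill with erythroid precursors. The groups share strain, tissue and phenylhydrazine treatment and differ by label only in the formaldehyde percentage, and the labels give no animal or age per library. The tables hold DNA contacts and no expression, so the labelled cell type could not be set against marker genes here. The run names of the libraries of 0% to 2% are written in a different form from those of 3% to 5%, so concentration and any change of sequencing or library batch between 2% and 3% cannot be told apart.

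Capture-C is a chromosome conformation capture (3C) method. Formaldehyde ties together DNA that lies close in the nucleus, the DpnII enzyme cuts the chromatin at GATC, and ends held together are ligated. Oligonucleotides then pull out the ligation products of chosen promoters, and each sequenced product gives a unique interaction between a promoter and another DpnII fragment. Interactions on the viewpoint's own chromosome are cis and those with other chromosomes are trans. Ligation of fragments that were not held together adds to both, and it is a main source of trans interactions. In erythroid cells the α- and β-globin genes encode the chains of adult haemoglobin, and Slc25a37 encodes mitoferrin-1, which imports iron into mitochondria for haem synthesis. The α-globin enhancers lie on the side of Nprl3, at lower coordinates, and the β-globin locus control region (LCR), a cluster of enhancers, lies beyond the embryonic genes Hbb-bh1 and Hbb-y, at higher coordinates. Slc25a37 has Synb and Entpd4 as its next genes at higher coordinates in the RefSeq gene order.

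The sequences at the globin viewpoints bear on how the interactions can be counted, so the promoter windows of 300 bases given by RefSeq (GRCm38.p6) are shown, with the DpnII site GATC in capitals. RefSeq names the adult β-globin genes of the reference strain Hbb-bs and Hbb-bt, and 4 viewpoint genes had a window in that table. The Hba-a1 window is chr11:32283422-32283721 and the Hba-a2 window chr11:32296242-32296541, both on the plus strand. The Hbb-bs window is chr7:103827879-103828178 and the Hbb-bt window chr7:103813874-103814173, both on the minus strand.
Hba-a1: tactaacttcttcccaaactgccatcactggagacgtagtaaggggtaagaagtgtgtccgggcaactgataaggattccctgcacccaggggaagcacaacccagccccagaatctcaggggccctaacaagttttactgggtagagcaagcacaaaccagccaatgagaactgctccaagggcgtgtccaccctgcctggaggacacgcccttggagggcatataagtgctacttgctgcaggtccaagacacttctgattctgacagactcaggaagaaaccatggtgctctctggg
Hba-a2: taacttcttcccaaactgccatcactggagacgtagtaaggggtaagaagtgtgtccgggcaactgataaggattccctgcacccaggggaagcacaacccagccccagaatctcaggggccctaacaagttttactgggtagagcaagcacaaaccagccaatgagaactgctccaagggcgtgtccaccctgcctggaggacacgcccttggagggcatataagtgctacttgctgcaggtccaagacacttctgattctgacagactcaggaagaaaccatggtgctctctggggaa
Hbb-bs: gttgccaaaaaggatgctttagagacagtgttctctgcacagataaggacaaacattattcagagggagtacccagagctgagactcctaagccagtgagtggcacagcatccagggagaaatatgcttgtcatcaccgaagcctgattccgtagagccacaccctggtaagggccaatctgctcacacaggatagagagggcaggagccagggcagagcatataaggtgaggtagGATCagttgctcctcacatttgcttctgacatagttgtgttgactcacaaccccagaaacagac
Hbb-bt: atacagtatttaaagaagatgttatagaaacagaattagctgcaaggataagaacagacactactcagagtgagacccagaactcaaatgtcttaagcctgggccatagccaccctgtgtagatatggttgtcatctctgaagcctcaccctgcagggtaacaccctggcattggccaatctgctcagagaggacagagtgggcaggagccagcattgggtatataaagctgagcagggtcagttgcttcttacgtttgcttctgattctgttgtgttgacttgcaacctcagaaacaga
The α-globin windows shared an unbroken run of 297 bases, against 14 bases as the longest run shared by the β-globin windows. Hbb-bs held 1 GATC, starting at base 237 of the window, and the other windows held 0. GATC reads the same on both strands and occurred in 48.0% of all 32851 promoter windows of that length. The study pooled the paired promoters because their interactions could not be told apart. At 2% and 3% formaldehyde, 28.2% to 32.7% of the trans fragments reached from the α-globin promoters and 29.6% to 33.3% of those reached from the β-globin promoters carried exactly 2 interactions, against 1.72% to 6.45% at the single Slc25a37 promoter. Whether 1 ligation product was counted at both members of a pair was not tested. If it was, counting intervals at the globin viewpoints are too narrow.

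In the tables (mm9), the fragments around the captured promoters hold no counts, and these stretches, each over 1500 bp, were taken as the viewpoints. They were chr11:32182317-32184781 and chr11:32194990-32197598 for α-globin, chr7:110961283-110963273 and chr7:110975292-110977138 for β-globin, and chr14:69902161-69904393 for Slc25a37. At the α-globin viewpoint the 2% libraries held 168633 and 128026 unique interactions and the 3% libraries 57467 and 81791. At the β-globin viewpoint they held 155233 and 113813 at 2% and 40235 and 56333 at 3%. At the Slc25a37 viewpoint they held 61802 and 41172 at 2% and 18397 and 27725 at 3%. Both 3% libraries were thus shallower than both 2% libraries at every viewpoint. The viewpoints came from the same capture of the same libraries, so they are not independent experiments, and p-values measure only the spread between technical replicates.

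The yield also shifted between viewpoints within a library. The β-globin viewpoint held 0.921 and 0.889 interactions for each α-globin interaction in the 2% libraries, and 0.700 and 0.689 in the 3% libraries. The ratio was 0.961 and 0.952 at 1% formaldehyde and 0.684 and 0.686 at 4%, so the values on each side of the step lay close together and did not overlap across it. The Slc25a37 to α-globin ratio was 0.366 and 0.322 at 2% and 0.320 and 0.339 at 3%, and the groups overlapped.

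The 2% replicates differed from each other in the trans and local shares. Replicate 1 at 2% had more trans interactions and fewer local ones (within 250 kb) than replicate 2 at every viewpoint, and replicate 2 often lay nearer to the 3% libraries. The main differences are therefore also given without 2% replicate 1.

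The trans share was lower in the mean of the 3% libraries at each viewpoint, but only at Slc25a37 did the groups separate. At Slc25a37 trans interactions made up 37.9% and 33.6% of the total at 2% and 29.3% and 28.0% at 3%, a difference of -7.11 percentage points. Both 3% libraries lay below both 2% libraries, and the exact two-sided permutation test gave p = 0.333, the smallest that 2 against 2 allows. At the α-globin promoters the shares were 37.0% and 30.7% at 2% and 31.2% and 28.6% at 3%, a difference of -3.93 points with overlapping groups (exact permutation p = 0.667). At the β-globin promoters they were 38.8% and 34.3% at 2% and 35.7% and 34.5% at 3%, a difference of -1.40 points with overlapping groups (exact permutation p = 1). The widest 95% Wilson interval, for Slc25a37 in 3% replicate 1, ran from 28.7% to 30.0% and covers counting error only. Without 2% replicate 1 the difference was -0.77 points at α-globin, 0.81 points at β-globin and -4.96 points at Slc25a37, so the β-globin direction turned. When each fragment was counted at most once per library, the difference was -4.42, -5.08 and -5.55 points at the α-globin, β-globin and Slc25a37 viewpoints, and the groups did not overlap at any of them. A count of distinct fragments depends on depth, and the 2% libraries were deeper at every viewpoint. These counts were not thinned to equal depth, and the part of depth in this separation was not tested.

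The local share separated the groups at α-globin and Slc25a37 but not at β-globin. Within 250 kb of the α-globin promoters lay 35.3% and 41.6% of all interactions at 2% and 44.0% and 46.6% at 3%. For Slc25a37 the local share was 34.4% and 40.4% at 2% and 47.4% and 49.6% at 3%. Both 3% libraries exceeded both 2% libraries at these viewpoints, by 6.85 and 11.1 points in the mean. For β-globin the local share was 31.0% and 35.8% at 2% and 35.1% and 35.9% at 3%, and the groups overlapped. Cis interactions beyond 250 kb were lower at 3% without overlap at each viewpoint, by -2.93 points for α-globin, -0.69 points for β-globin and -3.96 points for Slc25a37. In a wider frame, the mean trans share differed between 1% and 2% by -17.3, -17.3 and -16.1 points at the α-globin, β-globin and Slc25a37 viewpoints, and between 3% and 4% by -2.57, -2.21 and -1.55 points.

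**Figure D1:**
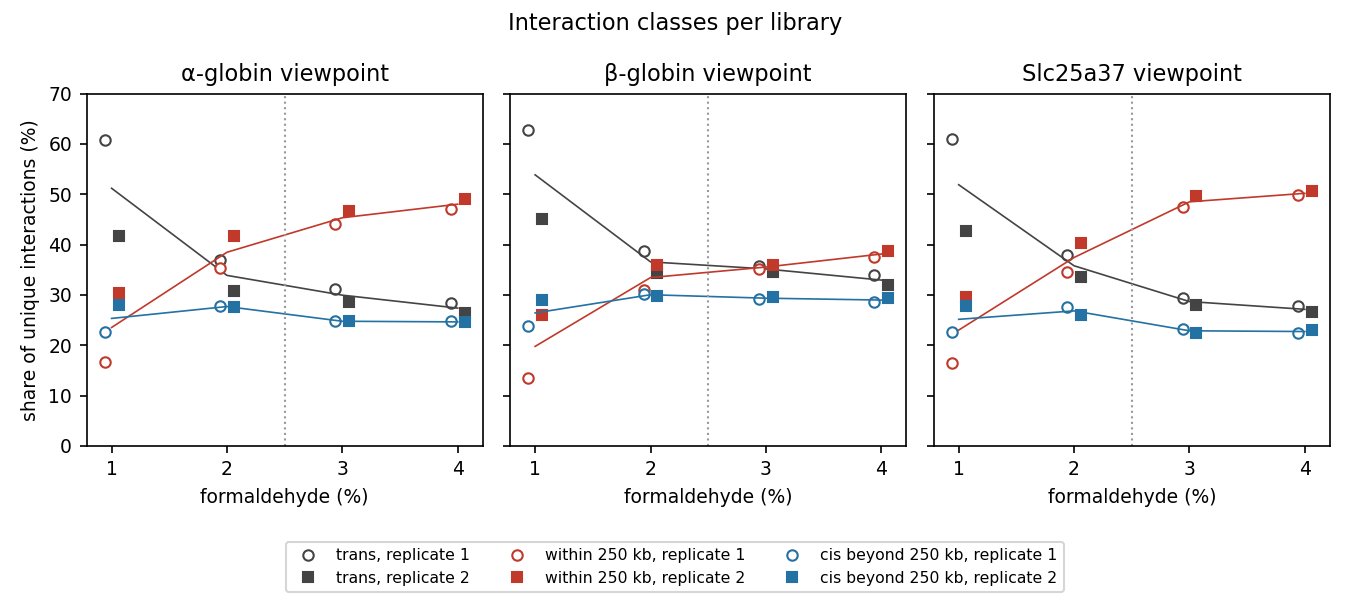
Share of unique interactions (%) that were trans, within 250 kb or in cis beyond 250 kb, for 1% to 4% formaldehyde at the 3 viewpoints. Points are single libraries (open, replicate 1; filled, replicate 2), lines join group means, and the dotted line marks the step from 2% to 3%; at Slc25a37 the 3% libraries lie below the 2% libraries in trans share (29.3% and 28.0% against 37.9% and 33.6%).

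The share of trans interactions on each chromosome gave no calls. Of 19 chromosomes tested at each viewpoint, 0 passed an adjusted p under 0.05 in edgeR's quasi-likelihood test with Benjamini-Hochberg adjustment (0% called), and 4, 2 and 1 had an unadjusted p under 0.05 at α-globin, β-globin and Slc25a37. DESeq2 called 1, 0 and 0. The fitted log2 differences ranged from -0.21 to 0.19 at α-globin, from -0.15 to 0.13 at β-globin and from -0.12 to 0.20 at Slc25a37. At α-globin the smallest adjusted p was that of chromosomes 7 and 15. Chromosome 7 took 6.06% and 6.20% of trans interactions at 2% and 6.91% and 6.86% at 3% (log2 difference 0.17 ± 0.06 SE, edgeR adjusted p = 0.067). Chromosome 15 took 4.91% and 5.30% at 2% and 4.54% and 4.30% at 3% (-0.21 ± 0.07 SE). At β-globin the smallest adjusted p, 0.15, was that of chromosome 11 (0.13 ± 0.05 SE) and chromosome 2 (-0.08 ± 0.03 SE). At Slc25a37 it was that of chromosome 19 (0.20 ± 0.06 SE, adjusted p = 0.45), and chromosome 7 had -0.09 ± 0.05 SE there. Without 2% replicate 1 the edgeR test called 2 chromosomes at α-globin, 2 at β-globin and 0 at Slc25a37. Direct contacts between the viewpoint loci were few, from 1 to 53 interactions or 0.019% to 0.108% of trans interactions per library and pair.

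Distance decay changed in a different way at each viewpoint, and the part common to all was confined to single classes beyond 300 kb. For each cis distance class the share of a library's cis interactions was compared. Summed over both sides, the classes of 300 kb to 1 Mb and of 10 to 30 Mb were lower at 3% without overlap between the groups at all 3 viewpoints. Long range as a whole was not common. Beyond 30 Mb β-globin was higher at 3% (8.30% and 8.52% at 2%, 8.75% and 9.07% at 3%). There α-globin (8.99% and 8.48% against 8.45% and 8.21%) and Slc25a37 (6.80% and 6.63% against 6.45% and 6.10%) were lower, all without overlap. From 1 to 3 Mb and from 3 to 10 Mb the groups overlapped at β-globin. The groups did not overlap in 70% of the classes at α-globin, 70% at β-globin and 88.9% at Slc25a37, so separation as such was the common case.

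From 300 kb to 1 Mb, α-globin had 7.04% and 6.57% of its cis interactions at 2% and 5.72% and 5.05% at 3%. β-globin had 3.57% and 3.68% at 2% and 3.22% and 3.08% at 3%. Slc25a37 had 4.08% and 3.68% at 2% and 2.75% and 2.84% at 3%. As log2 ratios of the means these were -0.34, -0.20 and -0.47. This was the only class in which a joint edgeR fit of the 4 libraries at 3 viewpoints found no difference in the change between viewpoints past the threshold (Benjamini-Hochberg adjusted p = 0.073). The miss does not show that the viewpoints changed alike.

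From 10 to 30 Mb, α-globin had 18.7% and 16.7% at 2% and 13.3% and 13.0% at 3%. Slc25a37 had 13.8% and 12.2% at 2% and 9.14% and 8.82% at 3%. β-globin had 19.0% and 17.4% at 2% and 16.5% and 16.3% at 3%. The direction was common to the viewpoints, but the size was not: the log2 ratio was -0.42 at α-globin, -0.53 at Slc25a37 and -0.15 at β-globin (joint edgeR fit, adjusted p = 0.00037).

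Up to 30 kb outside the promoters, β-globin moved against the others. Between the paired promoters it did not: that stretch took 7.65% and 10.3% of β-globin cis interactions at 2% and 10.5% and 11.0% at 3%, and 9.58% and 11.8% against 11.8% and 12.5% at α-globin, where the groups overlapped. Within 10 kb lay 11.7% and 13.6% of cis interactions at 2% and 16.1% and 17.0% at 3% for α-globin. For Slc25a37 these shares were 16.1% and 21.3% at 2% and 23.1% and 24.1% at 3%. For β-globin they were 7.94% and 8.52% at 2% and 7.28% and 7.52% at 3%, so the 3% libraries were above the 2% libraries at α-globin and Slc25a37 and below them at β-globin. From 10 to 30 kb, β-globin had 9.57% and 9.32% at 2% and 7.18% and 7.21% at 3%, whereas the shares were higher at 3% for α-globin (14.01% and 14.96% against 16.8% and 17.1%) and Slc25a37 (16.3% and 17.7% against 19.2% and 19.8%). From 30 to 100 kb β-globin was higher at 3%, with 20.6% and 22.9% against 25.2% and 25.2%, and so was Slc25a37, with 18.5% and 18.6% against 21.4% and 21.8%, whereas the α-globin groups overlapped. The joint fit found a difference between viewpoints in 8 of 9 classes (88.9%, adjusted p under 0.05), the 10 to 30 kb class with the smallest adjusted p, 2.3e-05.

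**Figure D2:**
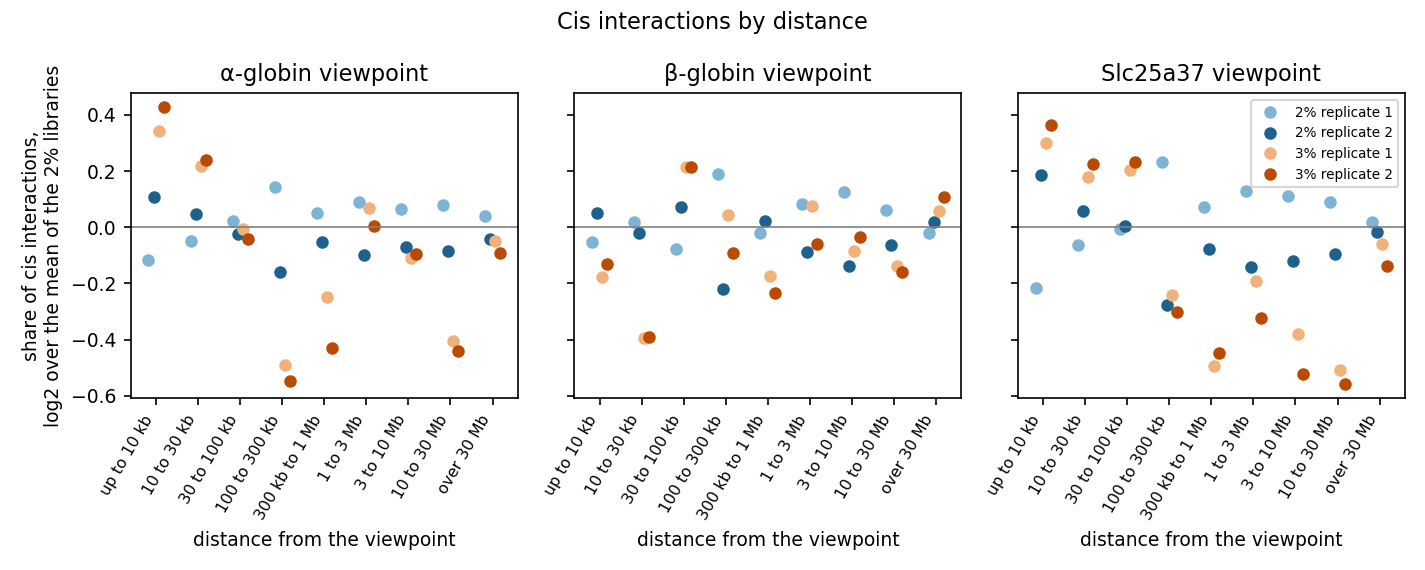
Share of cis interactions in 9 distance classes, as log2 over the mean of the 2% libraries, at each viewpoint, with 1 point per library. From 10 to 30 Mb both 3% libraries lie below both 2% libraries at all 3 viewpoints, and within 30 kb they lie above at α-globin and Slc25a37 but below at β-globin.

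With each side of the viewpoint fitted separately by edgeR's quasi-likelihood test, 6 of 18 classes were called at α-globin (33.3%), 3 of 19 at β-globin (15.8%) and 1 of 18 at Slc25a37 (5.56%). At α-globin the classes within 10 kb rose on the Nprl3 side (log2 change 0.47 ± 0.13 SE) and on the opposite side (0.19 ± 0.05). On both sides the classes of 10 to 30 Mb fell, by 0.48 ± 0.07 on the Nprl3 side and 0.40 ± 0.09 on the other. On the Nprl3 side the classes of 100 to 300 kb (-0.57 ± 0.15) and of 300 kb to 1 Mb (-0.31 ± 0.07) fell as well. The edgeR adjusted p was 0.018 for 10 to 30 Mb on the Nprl3 side and 0.048 for the other 5.

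At β-globin the classes of 10 to 30 kb fell on the LCR side (-0.36 ± 0.08 SE) and on the opposite side (-0.47 ± 0.11), and the class of 30 to 100 kb fell on the side away from the LCR (-0.55 ± 0.14), each with an edgeR adjusted p of 0.031. The class of 30 to 100 kb on the LCR side took 17.1% and 20.03% of cis interactions at 2% and 22.9% and 23.1% at 3% but did not pass the test (0.31 ± 0.14, adjusted p = 0.23). At Slc25a37 the class of 300 kb to 1 Mb on the Synb side fell (-0.61 ± 0.18, adjusted p = 0.039). Without 2% replicate 1 the counts were 3, 7 and 3 classes at α-globin, β-globin and Slc25a37. Without 3% replicate 1 they were 1, 0 and 0, and without 3% replicate 2 they were 0 at each viewpoint, the lone sample being assumed to vary like the others. Without 2% replicate 2 they were 8, 11 and 15.

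A single slope summarised the decay poorly. From 100 kb to 10 Mb, the slope of log10 interactions per base on log10 distance was -1.03 and -1.01 at 2% and -0.94 and -0.92 at 3% for α-globin, a difference of 0.09 without overlap (exact permutation p = 0.333). For β-globin it was -0.77 and -0.76 at 2% and -0.77 and -0.74 at 3%, and for Slc25a37 -0.74 and -0.70 at 2% and -0.73 and -0.75 at 3%, both with overlapping groups. From 1 to 10 Mb alone the slope was steeper at 3% without overlap at all 3 viewpoints, by -0.11, -0.06 and -0.06 for α-globin, β-globin and Slc25a37. The α-globin slope therefore turned direction with the range chosen.

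The local profiles kept their main peaks at both concentrations. Over the fragments within 250 kb, Pearson's r between a 2% and a 3% library averaged 0.97 at α-globin, 0.90 at β-globin and 0.96 at Slc25a37, as a description across fragments, which are not independent replicates. Between the replicates of 2% it was 0.97, 0.96 and 0.96, and between those of 3% it was 0.99, 0.98 and 0.98. By this measure the libraries of different concentration at α-globin and Slc25a37 were thus as alike as the 2% replicates. At β-globin all 4 pairs of different concentration, from 0.85 to 0.94, lay below both replicate pairs. This order did not hold on log2 values, where those pairs ranged from 0.85 to 0.88 and the 3% replicates had 0.84, or in 5 kb windows, where the highest such pair (0.984) exceeded the 2% replicates (0.982). The likeness at α-globin also depended on the measure. On log2 values its pairs of different concentration (0.905 to 0.920) lay below the 2% replicates (0.928), while the 3% replicates had 0.908. By Spearman's rho those pairs ranged from 0.789 to 0.813, against 0.841 for the 2% replicates and 0.789 for the 3% replicates.

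**Figure D3:**
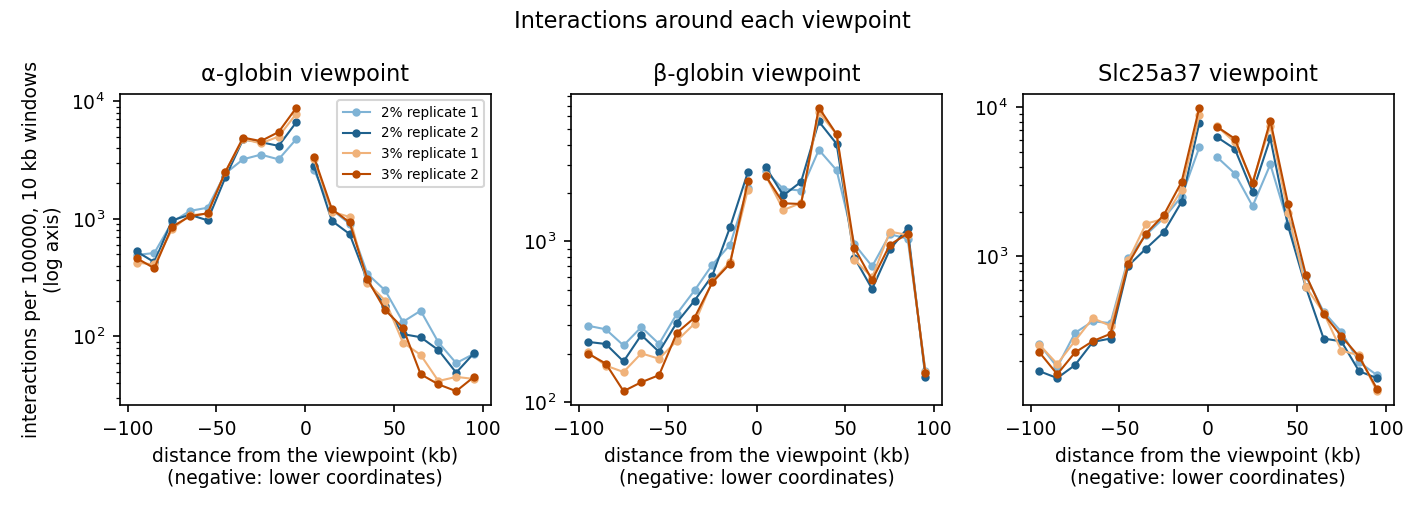
Interactions per 100000 in 10 kb windows (log axis) against the distance from each viewpoint (kb) in the 4 libraries, negative distances being lower coordinates. Both 3% libraries lie highest in the peak window 30 to 40 kb towards the LCR at β-globin (6338 and 6786 per 100000, against 3711 and 5568 at 2%), in the window 30 to 40 kb on the Synb side at Slc25a37 (7496 and 8137 against 4144 and 6206) and within 10 kb on the Nprl3 side at α-globin (7843 and 8816 against 4772 and 6640), and at β-globin they lie lowest 10 to 50 kb on the side away from the LCR.

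The balance between the sides separated the groups at β-globin only, of the 3 viewpoints. From 10 to 100 kb, the log2 ratio of LCR-side to other-side interactions at β-globin was 1.93 and 2.24 at 2% and 2.70 and 2.80 at 3%, a difference of 0.67 without overlap (exact permutation p = 0.333). The log2 ratio of Nprl3-side to other-side interactions at α-globin was 2.38 and 2.92 at 2% and 2.79 and 2.88 at 3%. The ratio of the Synb side to the other at Slc25a37 was 0.71 and 1.34 at 2% and 1.22 and 1.32 at 3%. In both of these the 3% values lay between the 2% values. Without 2% replicate 1 the β-globin difference was 0.51, while those of α-globin (-0.09) and Slc25a37 (-0.07) turned direction.

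At the level of single DpnII fragments, the edgeR fit called 22 of 418 tested fragments at β-globin (5.26%), of which 16 rose (3.83%) and 6 fell (1.44%). It called 1 of 370 at α-globin (0.27%), which fell, and 0 of 243 at Slc25a37 (0%), where 14 had an unadjusted p under 0.05 and DESeq2 also called 0. Changes here are relative to the other local fragments. With each library scaled to its total of interactions instead, the median log2 difference over the tested fragments was 0.11 at α-globin, -0.16 at β-globin and 0.35 at Slc25a37, against -0.05, -0.02 and -0.03.

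Among the fragments that rose at β-globin, 10 of 16 lay 30 to 50 kb from the promoters on the LCR side, a stretch that held 44 of the 418 tested fragments (10.5%). These bounds are not among the planned distance classes, so the share describes the calls and is no test. The planned class of 30 to 100 kb on that side held 130 tested fragments and the same 10 calls. The fragment chr7:111020367-111020512 (146 bp, 43.3 kb away) held 46.4 and 82.6 interactions per 100000 at 2% and 164 and 163 at 3% (log2 change 1.52 ± 0.29 SE, edgeR adjusted p = 6.1e-05). The 1% libraries held 4.24 and 33.7 and the 4% libraries 200.4 and 158. Fragments were named by their difference between the 2% and 3% libraries. Separation of these groups in a named fragment is therefore favoured by the choice and is no further support.

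The fragment chr7:111009378-111009551 (174 bp, 32.3 kb) held 88.9 and 221 per 100000 at 2% and 385 and 405 at 3% (1.53 ± 0.31). Its neighbour chr7:111009074-111009377 held 111 and 237 at 2% and 326 and 396 at 3% (1.23 ± 0.31). The fragment chr7:111007929-111008141 held 96.0 and 221 at 2% and 350.4 and 437 at 3% (1.498 ± 0.31). In each of these, 2% replicate 2 held more than replicate 1 and less than either 3% library. The fifth, chr7:111019426-111019506 (81 bp), held 86.3 and 181 at 2% and 238.6 and 304 at 3% (1.20 ± 0.30), with the same order.

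The fragments that fell at β-globin lay nearer to the promoters than the LCR-side group. The adjacent fragments chr7:110992546-110993438 and chr7:110993439-110993929, about 16 kb towards the LCR, fell together. The first held 153 and 128 per 100000 at 2% and 64.6 and 63.9 at 3% (log2 change -0.98 ± 0.30 SE). The other held 141 and 134 at 2% and 47.2 and 46.2 at 3% (-1.41 ± 0.31). A second adjacent pair, 28.7 and 29.1 kb away, fell as well. In it chr7:111005790-111005939 held 67.0 and 109 at 2% and 27.3 and 39.1 at 3% (-1.20 ± 0.36), and chr7:111005940-111006447 held 72.1 and 97.5 at 2% and 29.8 and 35.5 at 3% (-1.19 ± 0.37). The pair lies within 3 kb of fragments that rose. Between the promoters, chr7:110968546-110969492 (947 bp) held 52.2 and 51.8 at 2% and 12.4 and 7.10 at 3% (-2.30 ± 0.57).

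The fragment chr7:110974902-110975291, which touches the viewpoint stretch nearer to the LCR, was chosen for its position after its values were seen. It held 381 and 619 interactions per 100000 at 2% and 1064 and 1296 at 3%, the highest level at 3% among the called fragments (1.41 ± 0.41, edgeR adjusted p = 0.021).

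The only fragment called at α-globin was chr11:32071389-32072628 (1240 bp), 110.3 kb away on the Nprl3 side. It held 28 and 21 interactions at 2% and 1 and 0 at 3%, or 16.6 and 16.4 against 1.74 and 0 per 100000 (edgeR adjusted p = 0.012). At 4% it held 8.39 and 13.1 per 100000, and at 1% it held 12.2 and 11.3, so the 3% libraries stood apart from both neighbours.

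**Figure D4:**
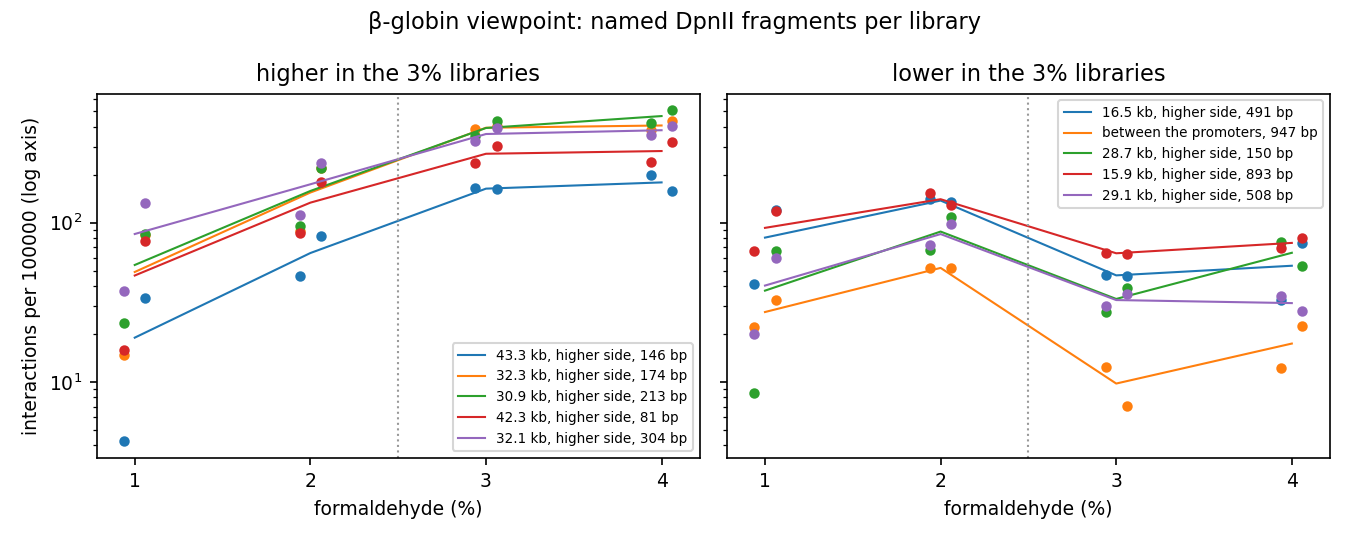
Interactions per 100000 (log axis) of the 5 rising and 5 falling β-globin fragments with the smallest adjusted p, in each library of 1% to 4% formaldehyde. Points are single libraries, lines join group means and the dotted line marks the step from 2% to 3%; the fragment 43.3 kb away goes from 46.4 and 82.6 at 2% to 164 and 163 at 3%.

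The β-globin calls depended on single libraries and on the scale of the test. They numbered 0 without 3% replicate 1, 0 without 3% replicate 2, 32 without 2% replicate 1 and 75 without 2% replicate 2. They numbered 6 in DESeq2 (all rose), 1 with library totals (it fell) and 0 in windows of 5 kb, and with libraries scaled within fragment length classes 10 rose and 10 fell. The α-globin count was 0 without 3% replicate 2, 8 without 2% replicate 1 and 99 without 2% replicate 2. None of the 10 named β-globin fragments changed direction in the alternatives run, but each lost its call in several of them. The alternatives reuse the libraries by which these fragments were chosen, so a kept direction is no further support.

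The neighbouring steps gave no calls among local fragments. From 1% to 2%, edgeR called 0 of 398, 442 and 248 local fragments at α-globin, β-globin and Slc25a37. An unadjusted p under 0.05 was reached by 30, 28 and 11. From 3% to 4% it called 0 of 332, 309 and 214, with 15, 10 and 10 at an unadjusted p under 0.05. The 1% replicates differed widely, with an α-globin trans share of 60.7% and 41.6%. The lack of calls from 1% to 2% therefore does not show that fewer fragments changed there. The median absolute log2 difference of the tested fragments was 0.46, 0.42 and 0.35 from 1% to 2%, 0.29, 0.43 and 0.27 from 2% to 3%, and 0.14, 0.21 and 0.17 from 3% to 4%. A test of the difference between the step from 2% to 3% and the step from 3% to 4% called 0 fragments (0%) at each viewpoint, with 13, 33 and 8 at an unadjusted p under 0.05. The same contrast on the cis distance classes, added after the data were seen, also called 0 (0%), with 1, 4 and 1 at an unadjusted p under 0.05. The step from 2% to 3% was thus not shown to differ from the next. From 3% to 4% the distance classes called numbered 0 of 18, 2 of 19 and 0 of 18. From 1% to 2% they numbered 0 at each viewpoint, with 4, 1 and 0 at an unadjusted p under 0.05. The median absolute log2 difference of the classes was 0.30, 0.25 and 0.33 from 1% to 2%. It was 0.23, 0.16 and 0.28 from 2% to 3%, and 0.034, 0.077 and 0.042 from 3% to 4%.

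The fragments ligated in trans were shorter at 3% at all 3 viewpoints. The mean length of the DpnII fragment in a trans interaction was 460 and 426 bp at 2% and 363 and 363 bp at 3% for α-globin. For β-globin it was 465 and 428 bp at 2% and 365 and 362 bp at 3%, and for Slc25a37 523 and 472 bp at 2% and 429 and 437 bp at 3%. The difference of the means was -80.2, -83.3 and -64.5 bp, with no overlap at any viewpoint (exact permutation p = 0.333 each). Within 250 kb in cis the mean length differed by -21.9 bp at α-globin, where the groups overlapped, -42.1 bp at β-globin and -32.0 bp at Slc25a37, without overlap at the last 2. The 4% libraries lay at 357 and 357 bp for α-globin, at 367 and 353 bp for β-globin and at 419 and 424 bp for Slc25a37, and the 1% libraries at 454 and 474, 471 and 462, and 498 and 534 bp.

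By length class, fragments of up to 200 bp took 33.6% and 31.5% of α-globin trans interactions at 2% and 38.4% and 37.6% at 3%. Those over 500 and up to 1000 bp took 24.6% and 20.9% at 2% and 15.1% and 15.3% at 3%. The groups separated in the same directions at β-globin, with 34.2% and 32.8% against 39.0% and 39.0% for the short class and 23.9% and 21.5% against 15.02% and 14.9% for the longer. At Slc25a37 the short class took 29.0% and 28.9% at 2% and 33.2% and 32.2% at 3%, and the longer 26.9% and 24.7% against 20.1% and 20.4%.

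Local fragments followed the same order. Among tested local fragments of up to 200 bp the median log2 difference was 0.14 at α-globin (100 fragments), 0.39 at β-globin (108) and 0.20 at Slc25a37 (77). Among those over 1000 bp it was -0.37 (31 fragments), -0.18 (49) and -0.25 (26). Spearman's rho of the log2 difference with length was -0.31, -0.31 and -0.45 over 370, 418 and 243 fragments, which share their libraries. Of the 16 fragments that rose at β-globin 14 were no longer than 500 bp, and of the 6 that fell 2 were, against 257 of all 418 tested (61.5%). The part of fragment length in the β-globin calls was measured only by the scaling within length classes.

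**Figure D5:**
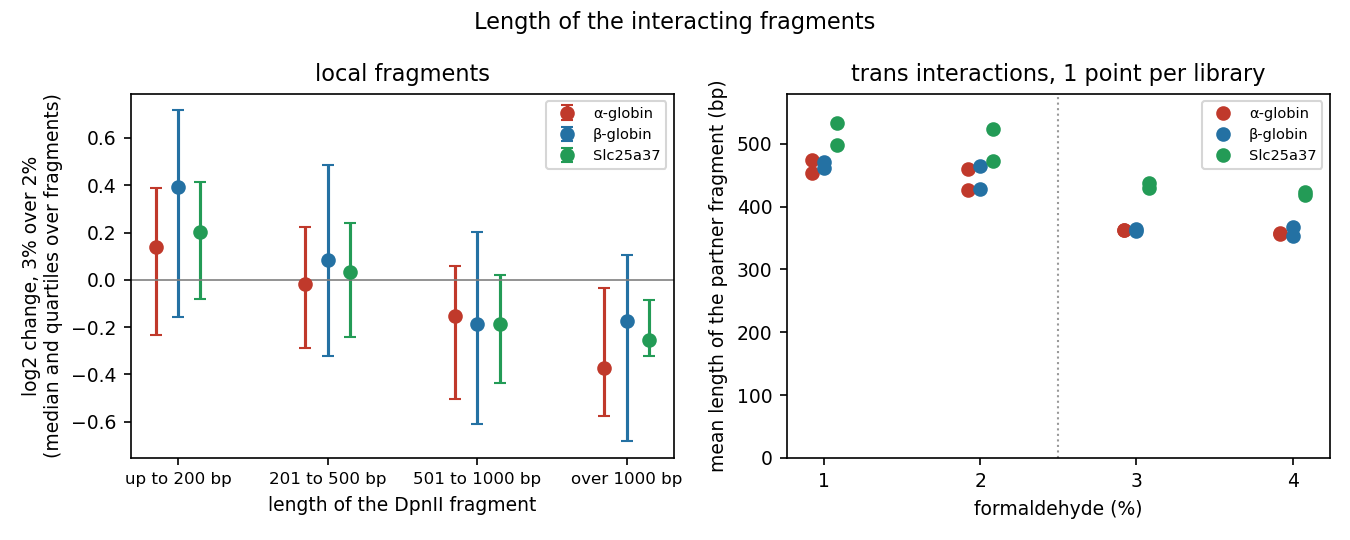
Left, log2 difference of local fragments (3% over 2%) by length of the DpnII fragment, as median and quartiles over fragments, at the 3 viewpoints; right, mean length (bp) of the fragment in trans interactions, 1 point per library, for 1% to 4% formaldehyde. The medians go from above 0 in the shortest class to below 0 in the longest at all 3 viewpoints, and the mean trans length is 363 bp in both 3% libraries at α-globin, against 460 and 426 bp at 2%.

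Splitting by length also separated the trans shares. Among fragments over 500 bp, counted alone, the trans share differed between 2% and 3% by -8.34 points at α-globin, -6.32 points at β-globin and -9.29 points at Slc25a37, without overlap at any viewpoint. Among fragments of up to 500 bp it differed by -2.75, -0.68 and -6.40 points, with overlapping groups at α-globin and β-globin. The β-globin side ratio differed by 0.72 in the shorter and 0.60 in the longer fragments, without overlap in either. These splits were added after the data were seen.

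Fragments hit exactly 3 times in trans were rarer at 3% at all 3 viewpoints, beside the lower depth, while the share hit exactly 2 times overlapped between the groups at both globin viewpoints. Fragments with exactly 3 trans interactions made up 2.99% and 3.77% of trans fragments at 2% and 0.95% and 0.79% at 3% for α-globin, 3.25% and 3.88% against 1.12% and 1.01% for β-globin, and 0.36% and 0.60% against 0.094% and 0.053% for Slc25a37. For each trans interaction, the number of interactions on its fragment was also averaged. This weights fragments by their hits and exceeds the plain mean per fragment. At Slc25a37 this weighted mean was 1.14 and 1.16 at 2% and 1.04 and 1.04 at 3%. With all libraries thinned to 18397 interactions it was 1.041 and 1.067 at 2% and 1.039 and 1.031 at 3%. At the globin viewpoints the order turned after thinning to the shallowest library. The weighted mean was then 1.20 and 1.32 at 2% and 1.57 and 1.36 at 3% for α-globin, and 1.16 and 1.24 at 2% and 1.59 and 1.41 at 3% for β-globin. The shallowest library, 3% replicate 1, was left whole, and the deeper 2% libraries were thinned the most. Random thinning lowers this mean in step with the share of interactions removed. The turned order thus follows from the depths and the values before thinning, and is no separate result.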

How the data were processed

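NG Capture-C was compared in 2 libraries of 2% and 2 of 3% formaldehyde at 3 viewpoints. The authors mapped reads to mm9 and removed PCR duplicates, and deposited counts of unique interactions per DpnII fragment, with the paired globin promoters pooled. Per the submitters' processing notes Trim Galore and Bowtie were used. Totals per library ran from 18397 to 168633, and their precision covers counting error only. Tables of the low-input experiments were not analysed here.

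Local fragments (within 250 kb, mean count of at least 10, TMM factors), cis distance classes and trans chromosomes were tested with edgeR 4.0.16 (quasi-likelihood, Benjamini-Hochberg adjusted p under 0.05) in R 4.3.3, with DESeq2 1.42.0 as an alternative. Shares, slopes and ratios were compared by exact two-sided permutation tests. Distances run from the outer edge of the viewpoint, or of the promoter pair, on the fragment's side. Fragments between paired promoters were given distance 0 and count as local. Only the local fragment test was checked on simulated counts. A simulated log2 change of 1 was found in 58 of 92 changed fragments at α-globin, 50 of 104 at β-globin and 27 of 61 at Slc25a37. False calls numbered 1, 3 and 1, and 0 at each viewpoint where nothing was changed. The simulated dispersion was below that fitted at β-globin (0.049). The members, lists and tests were chosen with earlier results of these data known. Named are, per viewpoint, the 5 called fragments that rose and the 5 that fell with the smallest adjusted p, and each called class. Gene order is from RefSeq GRCm38.p6, whose coordinates were not mixed with mm9.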

Additional observations from a re-analysis of the deposited data

Results flagged for a closer look

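The change from 2% to 3% formaldehyde in the share of cis interactions differed between the 3 viewpoints in 8 distance classes, by a test of the difference itself in a joint edgeR fit with the library as a term. The Benjamini-Hochberg adjusted p was 0.00037 within 10 kb, 2.3e-05 from 10 to 30 kb, 0.0093 from 30 to 100 kb and 0.00081 from 100 to 300 kb. It was 0.0052 from 1 to 3 Mb, 0.0011 from 3 to 10 Mb, 0.00037 from 10 to 30 Mb and 0.045 beyond 30 Mb. Relative to α-globin, β-globin differed most from 10 to 30 kb, by -0.62 on the log2 scale, and Slc25a37 from 3 to 10 Mb, by -0.35. The shares of 1 library add up to its total, so the classes are not independent of each other.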

How the results depend on the processing

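Local fragments called were 1 at α-globin, and 0 in DESeq2, with a mean count of at least 30, within 100 kb or with the 12 libraries of 0.5% to 5%, but 5 in windows of 5 kb. At β-globin 22 became 1 with library totals, 6 in DESeq2, 7 without a count filter, 0 without the first 10 kb, 0 in 5 kb windows and 11 with the 12 libraries. Leaving out each library in turn gave 0 to 99 at α-globin, 0 to 75 at β-globin and 0 at Slc25a37. Cis distance classes called ranged from 0 to 8, 0 to 11 and 0 to 15 with a library left out. At Slc25a37 they were 4 instead of 1 without the first 10 kb, in DESeq2, with the 12 libraries or with fragments up to 500 bp, and 0 with fragments over 500 bp, as at β-globin. Trans chromosomes at α-globin were 1 in DESeq2 instead of 0, at Slc25a37 12 fell as shares of all interactions, and leave-one-out gave 0 to 2, 0 to 2 and 0.

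With the replicate number as a block (replicate block), the calls were 1, 19 and 0 local fragments, 7, 2 and 4 classes, and 1 trans chromosome at α-globin. The labels do not say that a number marks a shared source, and the deviations of same-numbered libraries correlated at 0.092, 0.023 and 0.049.

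The slope difference reversed at α-globin from 1 to 10 Mb (-0.11) and from 10 kb to 1 Mb (-0.13), and at β-globin from 1 to 10 Mb (-0.0598). Left-out libraries gave slope differences of 0.0843 to 0.101, -0.00850 to 0.0223 and -0.0381 to 7.5e-05, trans share differences of -7.08 to -0.774, -3.62 to 0.812 and -9.26 to -4.96 points, and side ratio differences of -0.0903 to 0.45, 0.51 to 0.83 and -0.0664 to 0.56. Profile correlations were 0.91 (α-globin) and 0.84 (Slc25a37) on log2 values, 0.80, 0.82 and 0.76 as Spearman's rho and 0.99, 0.97 and 0.99 in 5 kb windows. The causes were not tested. Another 132 alternative values stayed within the limits set for an unchanged result. For counts the limit was a set ratio to the main count. For differences of shares, slopes and side ratios it was the direction alone, whatever the size. The α-globin trans share difference of -0.774 points without 2% replicate 1, against -3.93 with all libraries, is thus among them. For the named fragments and classes, 151 alternative values kept the call, 97 lost it and 0 turned direction. The scaling within fragment length classes and the splits at 500 bp were chosen after seeing the data.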
